A study of Mus musculus with 21 samples.

Results

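Hearts of mice fed a high-fat diet were compared with hearts of mice fed chow, when both received renin from a viral vector. The comparison holds 11 of the 21 libraries of the series: 5 from renin mice on the high-fat diet (here high-fat renin) and 6 from renin mice on chow (chow renin). All mice were male C57BL/6NJ, 8 to 10 weeks old when they were put on chow or on a diet in which fat gave 60% of the energy, and stayed on it for 10 weeks. An adeno-associated virus (AAV) carrying renin, or a null vector, was injected behind the eye, and hearts were collected 6 weeks later and freeze-clamped. The promoter that drives renin in the vector is not given in the sources used here. The other 10 libraries, 4 from mice on chow without renin (chow control) and 6 from mice on the high-fat diet without renin (high-fat control), gave the level without renin. The sample labels call these animals virus-free, while the series text gives them a null vector. The labels number the libraries as replicates and speak of 4 to 6 mice a group. Total RNA was sequenced, and the measure throughout is reads estimated per transcript and summed to genes.

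Of 23718 genes with reads, 15216 were deep enough to test, and 5561 of these had a mean of at least 20 CPM (reads per 1000000 reads of a library, after scaling) over the 21 libraries. Those 5561 genes held 93.9% of the reads of all genes with reads, and are described on their own because transcripts of nervous tissue were raised in every chow renin library. Depth was 24390000 to 27380000 estimated reads in chow renin and 23180000 to 29260000 in high-fat renin. Mitochondrially encoded transcripts took 30.9% to 33.7% and 29.8% to 35.5% of them. Cardiomyocyte markers were present in all 11 libraries: the 18 genes of that list had a summed level of 80400 to 83670 CPM in chow renin and 77760 to 81890 CPM in high-fat renin. Ren1, the endogenous mouse renin gene, had reads in 3 of the 11 libraries, at most 1 read in any, so heart reads did not show which animals carried the vector. The atrial light chain Myl7 was at 180.3 and 103.3 CPM in chow renin replicates 1 and 3 and at 167 CPM in high-fat renin replicate 3, but at 2.98 CPM or less in the other 8. Transcripts of nervous tissue separated the groups: all 28 genes of the central neuron list had reads in both, and their sum was 503 to 796 CPM in chow renin against 173 to 272 CPM in high-fat renin. A further list, of genes that stromal cells make when stimulated, summed to 786 to 952 CPM against 264 to 319.6 CPM. Of its 28 genes 1, Mmp10, had no reads in high-fat renin.

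Renin cleaves angiotensinogen in the blood, and the angiotensin II that follows constricts vessels, raises blood pressure and acts on the heart. A heart under pressure load thickens its muscle cells, turns on fetal isoforms of contractile proteins and natriuretic peptides, and lays down collagen between the cells. A high-fat diet brings obesity and insulin resistance and offers the heart more fatty acid, which is its main fuel and also the ligand of the PPAR receptors that set the genes of fat oxidation. Diet and renin together are used to model heart failure with preserved ejection fraction, in which a stiff ventricle fills poorly, and the comparison asks how hearts of mice given renin differed between the diets.

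The 250 bases before the start of transcription are printed for 5 genes that stand for the groups described below: 2 matrix genes, a wall stress gene, a tubulin gene and an inflammatory cytokine. Sequences are from RefSeq on GRCm38.p6, on the strand of the gene, 5′ to 3′, and the capitals mark motifs found by a search of both strands. The windows lie at chr1:45311288-45311537 (plus strand) for Col3a1, chr3:54360857-54361106 (plus) for Postn, chr2:67445752-67446001 (plus) for Xirp2, chr13:34078009-34078258 (minus) for Tubb2a and chr11:4257318-4257567 (plus) for Lif. Capitals mark TATAAA, the TATA motif, in Col3a1, Postn and Tubb2a, the AP-1 motif (TGANTCA) in Xirp2 and Lif, and in Tubb2a also the CRE motif (TGACGTCA).
Col3a1: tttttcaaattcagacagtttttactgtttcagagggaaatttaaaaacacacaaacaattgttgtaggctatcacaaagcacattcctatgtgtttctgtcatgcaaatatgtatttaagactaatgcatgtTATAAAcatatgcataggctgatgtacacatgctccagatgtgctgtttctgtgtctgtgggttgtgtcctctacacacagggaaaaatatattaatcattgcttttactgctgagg
Postn: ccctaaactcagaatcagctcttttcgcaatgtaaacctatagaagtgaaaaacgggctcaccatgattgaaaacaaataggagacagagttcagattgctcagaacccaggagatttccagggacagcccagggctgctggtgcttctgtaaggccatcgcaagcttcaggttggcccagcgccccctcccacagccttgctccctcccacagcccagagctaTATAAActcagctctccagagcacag
Xirp2: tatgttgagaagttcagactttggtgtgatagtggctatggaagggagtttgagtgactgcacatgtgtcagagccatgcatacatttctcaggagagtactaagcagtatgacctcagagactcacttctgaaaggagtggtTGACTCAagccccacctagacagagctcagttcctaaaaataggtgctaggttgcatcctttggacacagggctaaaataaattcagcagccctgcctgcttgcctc
Tubb2a: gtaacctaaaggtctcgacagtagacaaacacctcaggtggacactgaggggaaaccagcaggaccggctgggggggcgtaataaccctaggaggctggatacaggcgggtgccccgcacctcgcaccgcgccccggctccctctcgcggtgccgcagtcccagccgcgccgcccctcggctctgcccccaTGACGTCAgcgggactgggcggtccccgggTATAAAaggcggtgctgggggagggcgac
Lif: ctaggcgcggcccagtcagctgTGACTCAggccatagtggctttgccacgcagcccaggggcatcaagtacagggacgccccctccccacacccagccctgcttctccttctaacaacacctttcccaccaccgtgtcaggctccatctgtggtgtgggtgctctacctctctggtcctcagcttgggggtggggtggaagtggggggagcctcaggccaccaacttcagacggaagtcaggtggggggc
Of 108 genes named by rule, 83 were in the RefSeq table, and 64 had a start within 100 bases of the start in the annotation used for counting. TATA was in 8 of these 64 windows (12.5%) and in 12.4% of all 32851 windows of that table. AP-1 was in 2 (3.12%) against 6.75% of all, CRE in 3 (4.69%) against 1.55%, and the E-box CACGTG in 5 (7.81%) against 6.02%. The D-box TTATGTAA and the ERR element TCAAGGTCA were in 0 of the 64, and in 0.82% and 0.39% of all windows. A match describes the letters in the window and no more.

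Among the 5561 genes of at least 20 CPM, 1283 (23.1%) differed between high-fat renin and chow renin at an adjusted p under 0.05 (edgeR quasi-likelihood test, Benjamini-Hochberg over all 15216 genes). Higher in high-fat renin were 1012 (18.2%) and lower were 271 (4.87%). Most changes were small. Among called genes the log2 fold change had a median size of 0.29, and 14 rose and 24 fell by at least 1 on the log2 scale. In 668 of the 1283 called genes the 5 high-fat renin libraries lay entirely on one side of the 6 chow renin libraries. Over all genes of at least 20 CPM, 11% lay entirely above and 2.77% entirely below, called or not. The mean of 20 CPM was reached only through chow renin by 29 of the 271 lower genes, whose mean over the other 15 libraries was under 20 CPM, and only through high-fat renin by 28 of the 1012 higher genes. Among the genes named by rule these were 10 of the lower (Slc1a2, Plau, Il1rl1, Snap25, Ereg, Ptgs2, Lif, Scd1, Saa3 and Snhg11) and 4 of the higher (Hspa4l, Igsf1, Col8a1 and Gm10718).

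The balance of rises over falls depended on how libraries were scaled. The median log2 fold change of the 5561 genes was 0.07 with the trimmed mean of M-values (TMM), 0.01 with upper-quartile factors and -0.003 when TMM and the fit used only these genes. Rises and falls numbered 578 and 415 with upper-quartile factors, 476 and 478 in the fit on these genes alone, and 1008 and 336 with DESeq2. Small rises below therefore rest on the TMM scale, and a group whose direction changed with the scale is named where it is described. The marker lists moved with the groups as well: the mean log2 CPM of the 28 central neuron genes was 3.69 to 4.35 in chow renin and 2.17 to 2.62 in high-fat renin. This score and diet cannot be told apart in these 11 libraries. With the score as a covariate 9 genes of at least 20 CPM were called, all lower, and the standard errors of the named genes grew by a median ratio of 3.21.

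**Figure D1:**
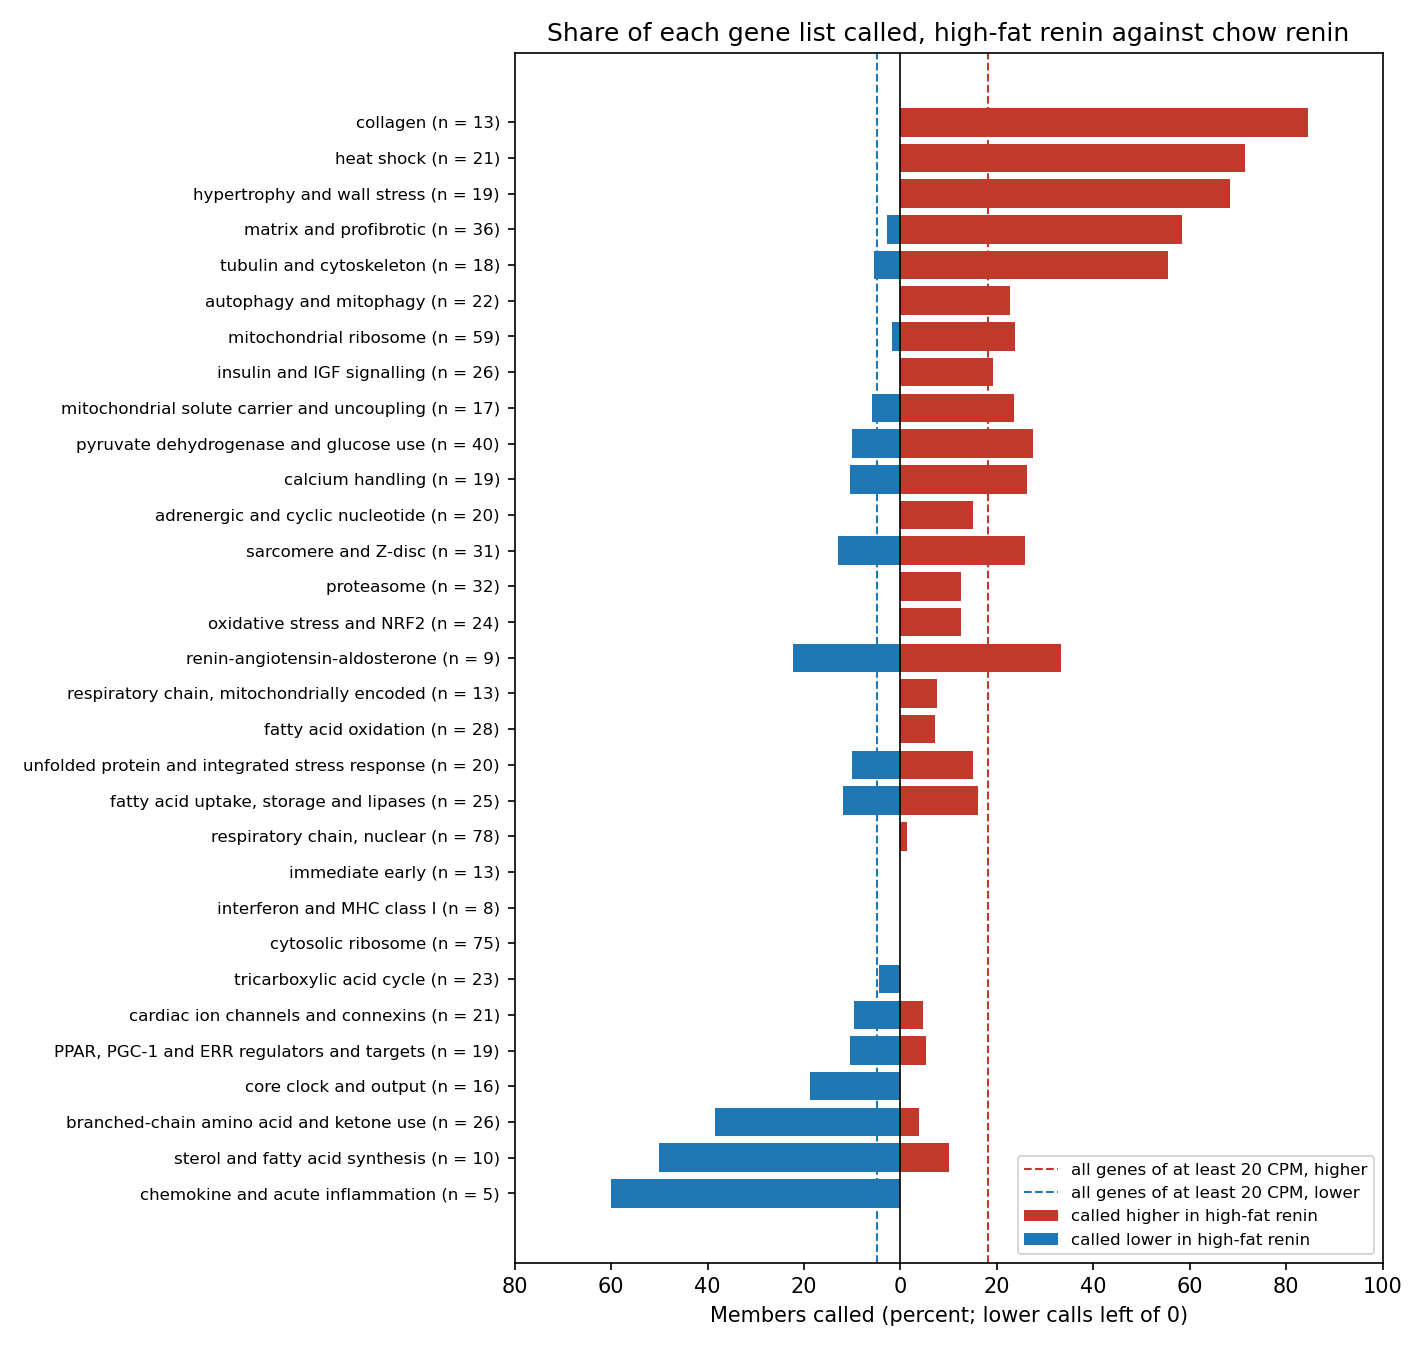
Share of each gene list called in high-fat renin against chow renin, counting members of at least 20 CPM with an adjusted p under 0.05. Bars to the right are higher and bars to the left lower in high-fat renin, and dashed lines mark the 18.2% and 4.87% of all genes of at least 20 CPM. Collagens reach 84.6% higher, heat shock genes 71.4% and wall stress genes 68.4%, while sterol and fatty acid synthesis has 50% lower. Members such as Col8a1, Hspa4l and Scd1 reached 20 CPM only through the renin group where they were high.

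Collagen and matrix genes rose together. Of 13 collagen genes of at least 20 CPM, 11 rose (84.6%, against 18.2% of all genes) and 0 fell. The median log2 fold change of the 13 was 0.76, against 0.07 over all genes of that level. The calls took in the fibrillar collagens Col1a2, Col3a1, Col5a1 and Col5a2, the basement membrane chains Col4a1 and Col4a2, the microfibrillar Col6a1, Col6a2 and Col6a3, and also Col8a1 and Col15a1. Col8a1 reached a mean of 20 CPM only through high-fat renin, the group where it was high. Of 36 other matrix and profibrotic genes, 21 rose (58.3%) and 1, Fn1 (fibronectin), fell (2.78%, against 4.87% of all genes), with a median of 0.36. Collagen calls stayed at 10 to 12 in every alternative except the central neuron covariate, where 0 were called and the median was -0.17.

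Col3a1 (chr1:45311538-45349706, plus strand, GRCm38) encodes type III collagen, which is laid down early in fibrosis. It measured 308, 214, 195, 444 and 245 CPM in high-fat renin replicates 1 to 5, and 107, 129.7 and 159.8 CPM as the lowest, median and highest of chow renin. Every high-fat renin library was above every chow renin library, and replicate 4 was the highest (log2 fold change 1.08, SE 0.29, adjusted p = 0.0128). Its partner Col1a2, a chain of type I collagen, measured 198, 188, 181, 285 and 179.9 CPM against 89.7, 97.5 and 137 CPM, again without overlap (log2 fold change 0.92, SE 0.24, adjusted p = 0.00793). Col1a1, the other chain of type I collagen, measured 172, 151, 144, 272 and 162 CPM against 77.2, 98.5 and 143 CPM. All 5 libraries lay above the 6 here too, but the difference missed the threshold (log2 fold change 0.83, SE 0.30, adjusted p = 0.0551) and passed it with DESeq2, with the replicate number as a block, in a fit of the 11 libraries alone, without chow renin replicate 1 and without the libraries with atrial transcripts.

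Postn (chr3:54361109-54391037, plus strand) encodes periostin, a matricellular protein made by activated fibroblasts. It was at 133, 71.2, 53.2, 85.5 and 101 CPM in high-fat renin against 18.1, 20.8 and 45.4 CPM in chow renin. No library of the groups overlapped, and chow renin replicates 1 and 3, which held atrial transcripts, were the highest of their group (log2 fold change 1.72, SE 0.44, adjusted p = 0.00894). Col8a1, a short-chain collagen of vessels and remodelling hearts, measured 71.8, 46.4, 27.4, 30.6 and 59.3 CPM against 15.2, 21.3 and 27.3 CPM. As stated above, it entered the 20 CPM set through high-fat renin. High-fat renin replicates 1, 5 and 2 were high, and replicates 3 and 4 sat just above the highest chow renin library (log2 fold change 1.12, SE 0.21, adjusted p = 0.000687).

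Some genes for enzymes that mature collagen were called higher. They belong to the matrix list, in which 14 of the 36 genes were not called, and were not counted as a list of their own. P4ha1, a subunit of the prolyl hydroxylase that lets the collagen helix fold, measured 113, 82.9, 73.7, 72.4 and 122 CPM against a narrow 44.2, 46.7 and 53.98 CPM (log2 fold change 0.96, SE 0.13, adjusted p = 1.40e-05). Loxl2, which cross-links collagen fibres, measured 50.4, 31.1, 23.7, 30.5 and 39.5 CPM against 15.9, 18.97 and 22.9 CPM (log2 fold change 0.90, SE 0.17, adjusted p = 0.000584). Neither gene overlapped between groups. The collagen chaperone Serpinh1, the lysyl hydroxylases Plod1 and Plod2 and the cross-linking enzyme Loxl1 were also among the called rises, as were laminin and nidogen genes of the basement membrane (Lama2, Lamb1, Lamc1, Nid1 and Nid2).

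Some markers of fibroblasts were called in the same direction. Of 12 fibroblast markers of at least 20 CPM, 5 rose (Col1a2, Col3a1, Pi16, Smoc2 and Lamc1), 0 fell and 7 were not called. The rises were 41.7%, against 18.2% of all genes, and the median of the list was 0.53. Col1a2 and Col3a1 are themselves collagens. The 16 genes of the list summed to 1490 to 2252 CPM in chow renin and 2268 to 3000 CPM in high-fat renin, so the groups did not overlap. In bulk tissue, more fibroblasts and more RNA per fibroblast cannot be told apart. Endothelial markers had 4 rises among 15 (26.7%, against 18.2% of all genes; Kdr, Flt1, Tek and Emcn) and 0 falls. The rises numbered 1 without chow renin replicate 1 or 3, and 2 without chow renin replicate 2, 4 or 5, or replicate 1, 2 or 5 of high-fat renin. The 13 smooth muscle and pericyte markers had 0 calls with edgeR, 0 with DESeq2 and 1 unadjusted p under 0.05. In the controls the fibroblast sum was 1657 to 2966 CPM in chow control and 1874 to 3361 CPM in high-fat control, so the controls reached both the upper chow renin values and those of high-fat renin.

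**Figure D2:**
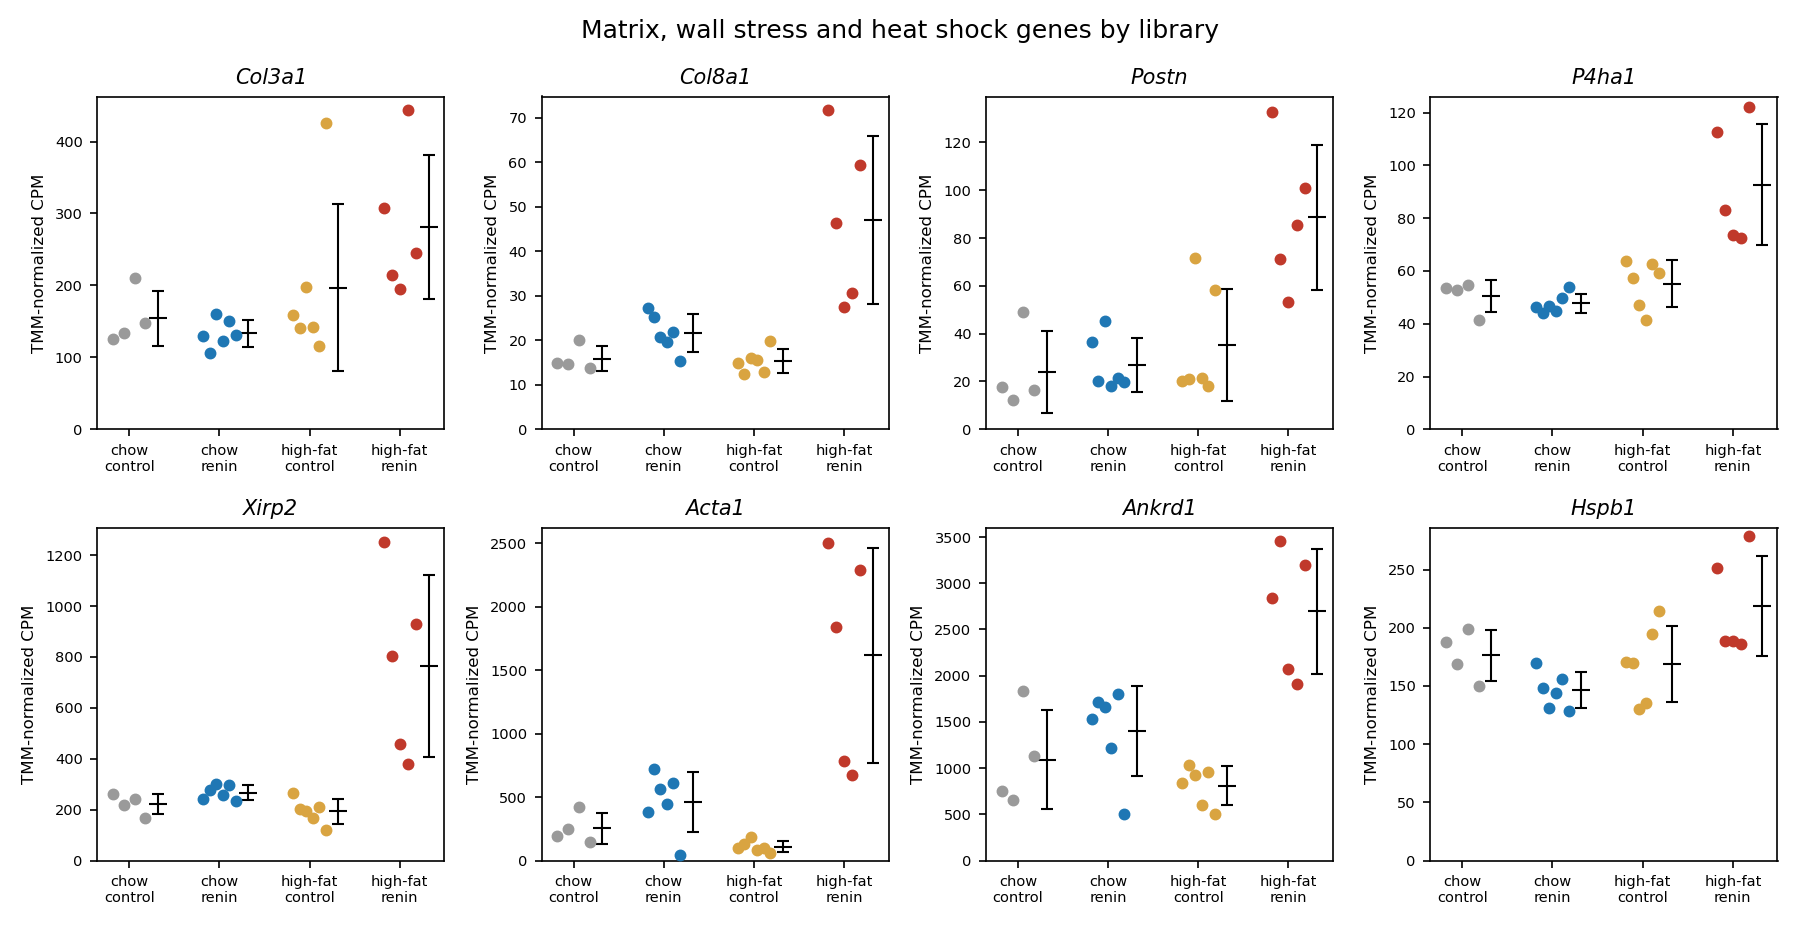
TMM-normalized CPM per library of 4 matrix genes (Col3a1, Col8a1, Postn, P4ha1) and 4 wall stress or heat shock genes (Xirp2, Acta1, Ankrd1, Hspb1) in the 4 groups, with mean and SD beside the points. High-fat renin stands above chow renin in all 8 panels, with an overlap only for Acta1, and its libraries spread widely.

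Most genes of wall stress and hypertrophy rose, by amounts that varied between high-fat renin hearts. Of 19 such genes of at least 20 CPM, 13 rose (68.4%, against 18.2% of all genes) and 0 fell. All 19 had a positive log2 fold change (median 0.50). The mean log2 CPM of the list was 9.47, 9.07, 8.68, 8.45 and 8.99 in high-fat renin replicates 1 to 5, and 7.51 to 8.47 in chow renin. High-fat renin replicate 4 fell inside the chow renin range, and chow renin replicate 6 was the low one. The count moved with the libraries and the scale: 8 with upper-quartile factors, 7 without the libraries with atrial transcripts, 7 with a clock covariate and 6 to 14 when single libraries were left out.

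Xirp2 (chr2:67446002-67526614, plus strand), an actin-binding protein of the intercalated disc that responds to angiotensin II, was higher in every high-fat renin heart. It measured 1251, 806, 456, 379 and 929 CPM in high-fat renin and 232, 267 and 299 CPM in chow renin. The lowest high-fat renin hearts, replicates 3 and 4, were still above all chow renin hearts (log2 fold change 1.52, SE 0.25, adjusted p = 0.000172). Ankrd1, a titin-bound strain sensor, measured 2840.0, 3453, 2076, 1907 and 3200.0 CPM against 499, 1593 and 1807 CPM. The groups did not overlap, yet the call was narrow (log2 fold change 0.94, SE 0.31, adjusted p = 0.0373) and was lost with upper-quartile factors, with a fit of genes of at least 20 CPM alone, without low-count filter, with the clock covariate, without the libraries with atrial transcripts and in 6 of 11 fits that left out a library.

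Acta1, the skeletal actin that hypertrophic ventricle re-expresses, measured 2499, 1840.0, 784, 670.1 and 2291 CPM against 41.9, 505 and 724 CPM. High-fat renin replicate 4 lay inside the chow renin range, and chow renin replicate 6 at 41.9 CPM was far below its group. The rise passed the test (log2 fold change 1.81, SE 0.53, adjusted p = 0.0195), and was not called without high-fat renin replicate 1 or 5, without the atrial libraries, with the clock covariate or in a fit of the 11 libraries alone. Rcan1, a feedback inhibitor of the phosphatase calcineurin, measured 314, 156, 86.03, 79.1 and 162 CPM against 58.9, 70.7 and 87.8 CPM, with high-fat renin replicates 3 and 4 inside the chow renin range (log2 fold change 1.17, SE 0.26, adjusted p = 0.00299). Without high-fat renin replicate 1 its log2 fold change was 0.74, and it was still called.

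The myosin Myh7 and the natriuretic peptides Nppa and Nppb did not pass the test, unlike Acta1. Myh7, the slow myosin heavy chain that rises with pressure load, measured 3686, 3305, 2158, 1026 and 1041 CPM against 295, 1784 and 2513 CPM, with broad overlap (log2 fold change 0.46, SE 0.47, adjusted p = 0.546). Nppa, atrial natriuretic peptide, measured 1002, 694, 371, 112 and 576 CPM against 54.7, 308 and 462 CPM (log2 fold change 0.93, SE 0.62, adjusted p = 0.322). Nppb, brain natriuretic peptide, measured 629.9, 275, 107, 102 and 252 CPM against 48.2, 87.6 and 196 CPM (log2 fold change 1.40, SE 0.52, adjusted p = 0.0614), and it was called with DESeq2 and when chow renin replicate 2 or high-fat renin replicate 3 or 4 was left out. In Myh7, Nppa and Nppb high-fat renin replicate 1 was the highest of the 11 libraries. The fast myosin Myh6, the main adult isoform in mouse ventricle, was at 26787 to 29018 CPM in chow renin and lower, at 20951 to 26294 CPM, in high-fat renin (log2 fold change -0.23, SE 0.07, adjusted p = 0.0262). That call was lost with the clock covariate and without high-fat renin replicate 1, 2 or 5.

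Contractile genes were called in both directions. Among 31 sarcomere and Z-disc genes of at least 20 CPM, 8 rose and 4 fell (25.8% and 12.9%, against 18.2% and 4.87% of all genes). The rises were genes of scaffolds, thin filaments, the titin spring and chaperones: Ttn, Actc1, Myom1, Pdlim5, Smyd1, Lmod3, Cryab and Bag3. The falls were Myh6, Myl2, Tnnt2 and Tnni3, which encode ventricular myosin and troponin subunits. Pdlim5, a Z-disc adaptor, measured 774, 670.0, 580.1, 578 and 702 CPM against 440.1, 456 and 499 CPM without overlap (log2 fold change 0.50, SE 0.09, adjusted p = 0.000174). Cardiac actin Actc1 measured 9149, 7887, 7104, 8153 and 8528 CPM against 5061, 6167 and 6892 CPM (log2 fold change 0.42, SE 0.10, adjusted p = 0.00356). Cryab, a small heat shock protein that guards desmin and titin, measured 1095, 969.5, 907, 869 and 1212 CPM against 725, 809.9 and 822 CPM (log2 fold change 0.36, SE 0.09, adjusted p = 0.00378). None of these 3 genes overlapped between the groups. With the clock covariate 4 of the list rose and 0 fell. Falls numbered 0 without high-fat renin replicate 1, 2 or 5 and 1 without chow renin replicate 2 or 4, and rises 5 without chow renin replicate 1 or 3, or replicate 1 of high-fat renin.

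Calcium handling had 5 rises and 2 falls among 19 genes (26.3% and 10.5%, against 18.2% and 4.87% of all genes). Rises numbered 2 without replicate 1 of either group and 3 without chow renin replicate 3. Casq2, the calcium buffer of the sarcoplasmic reticulum, measured 1251, 1130.0, 781, 749 and 962 CPM against 591, 613 and 699 CPM without overlap (log2 fold change 0.63, SE 0.12, adjusted p = 0.000348). Srl, sarcalumenin, a calcium-binding glycoprotein of the same store, measured 1160.0, 927, 793, 779 and 949.9 CPM against 627, 680.4 and 699.7 CPM (log2 fold change 0.45, SE 0.10, adjusted p = 0.00181). Slc8a1, the sodium-calcium exchanger, overlapped between groups at 176 to 265 and 216 to 434 CPM (log2 fold change 0.58, SE 0.18, adjusted p = 0.0232). Its call was lost in 6 of the 20 alternatives other than the central neuron covariate, and leaving out high-fat renin replicate 1 gave 0.39. The falls were Calm2 (calmodulin) and the IP3 receptor Itpr1. The calcium pump and release channel themselves, Atp2a2 and Ryr2, and phospholamban (Pln) did not pass the test.

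Few ion channel and connexin genes differed, with 1 rise and 2 falls among 21 (4.76% and 9.52%, against 18.2% and 4.87% of all genes), and 0 to 1 rises and 1 to 2 falls when single libraries were left out. Kcnip2, the subunit that gives the transient outward potassium current its size, measured 67.1, 117, 102, 81.6 and 92.2 CPM against 116, 132 and 145 CPM. Most high-fat renin hearts were below the chow renin range and 1 reached into it (log2 fold change -0.52, SE 0.17, adjusted p = 0.0325). The call was lost in 8 of the 20 alternatives other than the central neuron covariate.

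Heat shock genes were among the groups with the largest share of rises. Of 21 of at least 20 CPM, 15 rose (71.4%, against 18.2% of all genes) and 0 fell (median log2 fold change 0.28). The rises were Hspa8, Hspa4, Hspa4l, Hspb1, Hspb6, Hspb8, Hspd1, Hsp90aa1, Hsp90ab1, Dnaja1, Dnajb4, Bag3, Chordc1, Ahsa1 and Stip1. These encode chaperones of the cytosol and mitochondria and the co-chaperones that load them. The list level was 7.62, 7.47, 7.43, 7.35 and 7.69 (mean log2 CPM) in high-fat renin replicates 1 to 5, all above the 7.17 to 7.27 of chow renin. Rises numbered 10 with upper-quartile factors, 9 in the fit of genes of at least 20 CPM alone and 8 without the atrial libraries. They numbered 7 with the clock covariate and 9 to 16 without single libraries, and the cause of these changes was not tested.

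Hspb1, a small heat shock protein that binds actin filaments, measured 252, 188, 189, 186 and 278 CPM against 128, 146 and 169.7 CPM. Replicates 1 and 5 of high-fat renin were high and the other three lay together just above chow renin (log2 fold change 0.58, SE 0.13, adjusted p = 0.00231). Hspb8, which works with Bag3 to clear damaged filament proteins, measured 465, 467, 361, 374 and 446 CPM against 247, 299 and 311 CPM without overlap (log2 fold change 0.55, SE 0.09, adjusted p = 6.65e-05). Hspa4l, an exchange factor for Hsp70, measured 30.97, 28.5, 21.8, 21.2 and 34.04 CPM against 17.6, 20.04 and 21.1 CPM, the lowest high-fat renin heart just above the highest chow renin heart (log2 fold change 0.46, SE 0.11, adjusted p = 0.00473). Hspa4l reached a mean of 20 CPM only through high-fat renin.

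Cytoskeletal genes followed, with 10 rises and 1 fall (Ezr) among 18 (55.6% and 5.56%, against 18.2% and 4.87% of all genes). Rises numbered 5 to 10 when single libraries were left out. The rises took in tubulins (Tuba1b, Tuba4a, Tuba8, Tubb2a, Tubb4b and Tubb5), which form the microtubules that stiffen loaded cardiomyocytes, as well as desmin and Map4. Tubb4b measured 295, 169, 190.5, 197 and 217 CPM against 119.7, 152 and 158 CPM without overlap (log2 fold change 0.55, SE 0.12, adjusted p = 0.00216). Tubb2a was at 66.9, 38.3, 26.4, 32.8 and 43.5 CPM against 24.1, 26.9 and 33.8 CPM, so that replicate 1 carried much of its rise (log2 fold change 0.58, SE 0.17, adjusted p = 0.0159). Without that library the log2 fold change was 0.32 and the gene was not called. Tubulin genes are similar in sequence, and reads may be shared between them in the estimates. The call of Tuba8 (0.61 ± 0.19, log2 and SE) was lost in 9 of the 20 alternatives other than the central neuron covariate, 6 of which left out a single library, and its lowest value there was 0.40 without high-fat renin replicate 1.

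**Figure D3:**
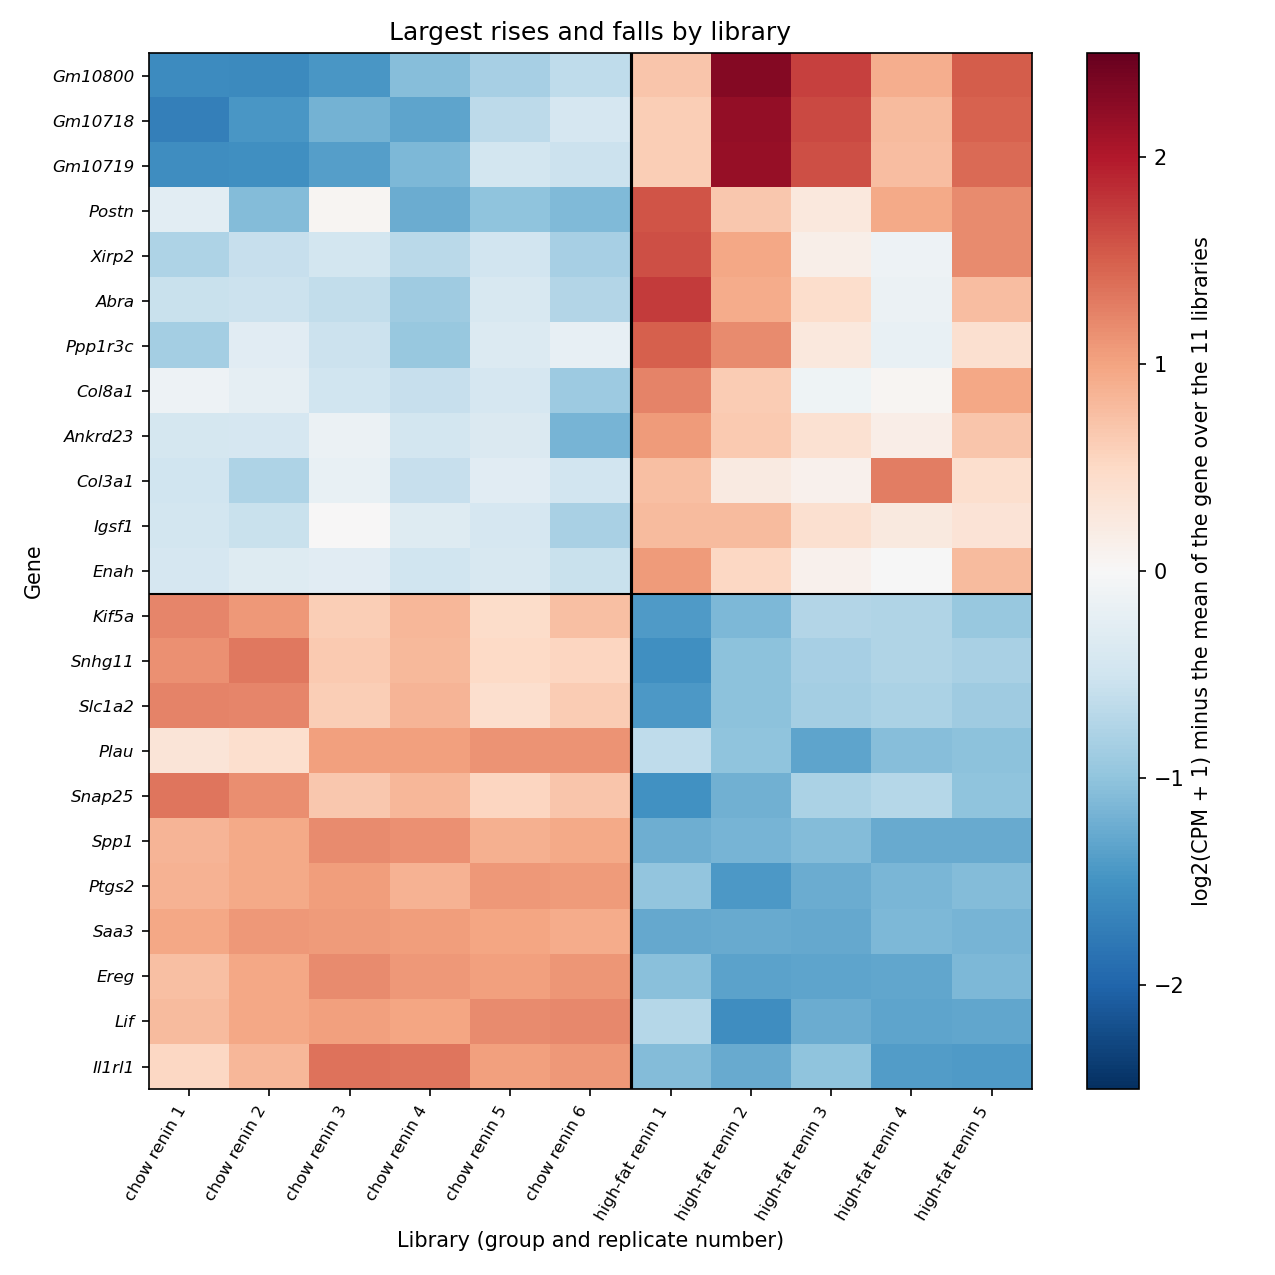
Heat map of the 12 largest rises and 11 of the 12 largest falls among protein-coding genes of at least 20 CPM whose groups did not overlap, as log2(CPM + 1) minus the mean of the gene over the 11 libraries. Chow renin libraries are the 6 columns on the left and high-fat renin the 5 on the right, with rises on top. High-fat renin replicate 1 is the darkest column for Xirp2, Abra and Ppp1r3c, and replicates 3 and 4 are the palest.

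Other genes among the 12 largest rises belonged to muscle signalling and glycogen. Abra, an actin-binding activator of serum response factor signalling (also called STARS), measured 230.2, 129.9, 92.6, 61.4 and 116 CPM against 36.2, 44.9 and 51.5 CPM (log2 fold change 1.51, SE 0.28, adjusted p = 0.000644). Ankrd23, a titin-bound relative of Ankrd1, measured 1149, 863, 717, 618 and 891 CPM against 244, 405 and 497 CPM (log2 fold change 1.099, SE 0.22, adjusted p = 0.00133). Ppp1r3c, which targets a phosphatase to glycogen, measured 241, 193, 102, 74.8 and 113 CPM against 43.6, 62.5 and 73.6 CPM (log2 fold change 1.27, SE 0.27, adjusted p = 0.00176). For all 3 genes replicate 4 of high-fat renin was the lowest of the group and replicate 1 the highest.

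Enah, an actin regulator of the intercalated disc, measured 297, 204, 153, 141 and 248 CPM against 95.9, 107 and 117 CPM (log2 fold change 0.97, SE 0.15, adjusted p = 9.24e-05). Igsf1, an immunoglobulin superfamily membrane protein, measured 37.5, 37.5, 28.1, 25.2 and 26.9 CPM against 11.6, 15.3 and 21.4 CPM (log2 fold change 0.98, SE 0.18, adjusted p = 0.000384). Both stood clear of chow renin, and Igsf1 reached a mean of 20 CPM only through high-fat renin. Gm10800, Gm10718 and Gm10719 had the largest rises by the rule (2.78 ± 0.70, 2.70 ± 0.65 and 2.58 ± 0.68, log2 and SE). They are near-identical repeat-derived models among which reads cannot be assigned with certainty, so the 3 values are uncertain and not independent. Gm10800 was at 82.5 ± 37.6 CPM (SD, n = 5) in high-fat renin and 12.03 ± 3.77 CPM (n = 6) in chow renin, and at 61.6 ± 60.3 (n = 6) and 10.2 ± 12.5 CPM (n = 4) in high-fat and chow control.

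Few genes of fat oxidation passed the test with all libraries. Among 28 genes of fatty acid oxidation of at least 20 CPM, 2 rose and 0 fell, below the 18.2% of all genes. The direction depended on the scale, with 0 rises and 2 falls under upper-quartile factors and in the fit of these genes alone. The count also turned on single libraries: 8 rose without chow renin replicate 6, and 0 without chow renin replicate 1, 3 or 5, or replicate 2 of high-fat renin. In all libraries 10 of the 28 had an unadjusted p under 0.05, and DESeq2 called 4. The rises were Cpt2, which turns acylcarnitine back into acyl-CoA inside mitochondria, and Slc25a20, which carries it across the inner membrane, at 0.25 ± 0.09 and 0.30 ± 0.09 (log2, SE), with adjusted p of 0.0463 and 0.0214 by edgeR. The calls were lost in 15 and 8 of the 20 alternatives, both with upper-quartile factors and in the fit of these genes alone. Cpt1b, the muscle gate of fat entry into mitochondria, measured 659, 698, 724, 722 and 657 CPM against 571, 584 and 712 CPM (log2 fold change 0.20, SE 0.07, adjusted p = 0.0512). Chow renin replicate 6 was the outlying library of its group, and without it the gene passed the test at 0.25. It also passed with DESeq2 and in the fit of the 11 libraries alone (adjusted p = 0.0475 and 0.0356).

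Uptake and storage genes had 4 rises and 3 falls among 25 (16% and 12%, against 18.2% and 4.87% of all genes). Falls numbered 1 without chow renin replicate 2, 4 or 6, or replicate 1 or 5 of high-fat renin. Fabp3, the fatty acid carrier of heart muscle, measured 2665, 2906, 2586, 2599 and 2653 CPM against 1873, 1978 and 2272 CPM without overlap (log2 fold change 0.41, SE 0.08, adjusted p = 0.000371). Cidea, a lipid droplet protein, measured 26.9, 32.04, 28.9, 30.2 and 29.9 CPM against 19.2, 21.6 and 22.5 CPM, again without overlap (log2 fold change 0.49, SE 0.09, adjusted p = 0.000253). Slc27a1, a fatty acid transporter, was at 118, 149, 236, 243 and 138 CPM against 207, 233 and 267 CPM, with high-fat renin replicates 3 and 4 inside the chow renin range (log2 fold change -0.41, SE 0.15, adjusted p = 0.04997). Its call was lost in 10 of the 20 alternatives, and Lpl and Dgat2 were also called lower. The uptake receptor Cd36 (log2 fold change 0.17, SE 0.07, adjusted p = 0.0905), the droplet coat Plin2 (log2 fold change 0.17, SE 0.09, adjusted p = 0.216) and the PPAR target Angptl4 (log2 fold change 0.24, SE 0.41, adjusted p = 0.741) did not pass the test. Without chow renin replicate 6, the highest of its group for Cd36, that gene was called at 0.24 (adjusted p = 0.00714 by edgeR).

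Pdk4 and Ucp3, which are also PPAR targets, were not called. Pdk4, the kinase that turns off pyruvate dehydrogenase when fat is burnt, measured 627, 727, 689, 853 and 979 CPM against 576, 741 and 973 CPM (log2 fold change -0.0036, SE 0.19, adjusted p = 0.992). Ucp3, a mitochondrial carrier induced by fatty acids, measured 21.2, 40.4, 83.8, 145 and 89.2 CPM against 90.5, 104 and 145 CPM, and replicates 1 and 2 were low and replicate 4 high (log2 fold change -0.51, SE 0.33, adjusted p = 0.298). Without replicate 4 the log2 fold change was -0.89 and the gene was called. Of the 19 PPAR, PGC-1 and ERR genes, 1 rose (Perm1, whose call was lost in 9 of the 20 alternatives) and 2 fell (Srebf1 and Srebf2), which is 5.26% and 10.5% against 18.2% and 4.87% of all genes. Rises numbered 2 without chow renin replicate 6, and 0 without chow renin replicate 1, 3 or 5, or replicate 1 or 3 of high-fat renin.

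Some genes that make fatty acids and sterols fell. Of 10 of at least 20 CPM, 5 fell (Hmgcs1, Acly, Fasn, Scd1 and Scd2) and 1 rose (Me1), with a median of -0.21, against a background of 4.87% falls. Scd1 reached 20 CPM only through chow renin, the group where it was high, and had to be lower elsewhere. Fasn, the fatty acid synthase, measured 23.2, 34.9, 28.1, 24.8 and 28.98 CPM against 40.00, 43.8 and 53.3 CPM without overlap (log2 fold change -0.70, SE 0.12, adjusted p = 0.000104). Scd1, a desaturase, measured 16.4, 14.8, 20.1, 15.1 and 18.3 CPM against 26.5, 31.1 and 34.4 CPM (log2 fold change -0.85, SE 0.22, adjusted p = 0.00897). In chow control Scd1 was at 14.49, 14.72, 32.65 and 14.11 CPM. Scd2, the desaturase that is abundant in brain, fell most in the list, with 26.97, 26.8, 36.7, 29.6 and 30.9 CPM against 58.4, 66.04 and 86.8 CPM (log2 fold change -1.19, SE 0.14, adjusted p = 1.21e-06). It was at 27.7 ± 4.59 CPM (SD, n = 4) in chow control, near the level of high-fat renin. Fasn, Scd1 and Scd2 did not overlap between the groups. Srebf2, the regulator of the sterol genes, measured 28.9, 28.1, 32.5, 32.5 and 31.6 CPM against 38.4, 40.5 and 41.4 CPM (log2 fold change -0.39, SE 0.06, adjusted p = 2.35e-05). Srebf1, its counterpart for fatty acids, fell with some overlap (log2 fold change -0.35, SE 0.08, adjusted p = 0.00347).

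Glucose genes rose at 11 of 40 and fell at 4 (27.5% and 10%, against 18.2% and 4.87% of all genes), a share that is not stable: 3 rose and 4 fell without the atrial libraries, 3 rose and 1 fell with the clock covariate, and 4 to 15 rose when single libraries were left out. Pfkp, the platelet-type phosphofructokinase, measured 185, 112, 72.1, 79.7 and 125 CPM against 51.5, 65.98 and 72.8 CPM, the lowest high-fat renin library being just inside the chow renin range (log2 fold change 0.83, SE 0.17, adjusted p = 0.00142). Pfkfb2, the heart kinase that makes the activator of phosphofructokinase, rose with overlap (log2 fold change 0.72, SE 0.21, adjusted p = 0.0169). The glucose transporters went the other way. Slc2a1 (GLUT1) measured 24.6, 20.8, 22.8, 15.8 and 21.4 CPM against 28.8, 34.3 and 38.05 CPM without overlap (log2 fold change -0.69, SE 0.09, adjusted p = 5.96e-06), and Slc2a4, the insulin-regulated GLUT4, was also called lower together with Ldhb and Pdk2. Slc2a1 was at 23.6 to 27.9 CPM in chow control and 16.9 to 23.2 CPM in high-fat control. Every chow renin library thus lay above all libraries of the other groups, as for the nervous tissue genes below.

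Some genes that break down branched-chain amino acids fell. Of 26 genes of branched-chain amino acid and ketone use, 10 fell (38.5%, against 4.87% of all genes), 15 were not called and 1 rose. The falls were Bcat2, Bckdha, Bckdhb, Dbt, Ppm1k, Ivd, Mccc2, Aldh6a1, Acadsb and Hsd17b10, and the rise was Hibch. The median log2 fold change of the list was -0.13. Falls numbered 13 with upper-quartile factors, 5 with the clock covariate and 5 to 11 without single libraries. Ppm1k, the phosphatase that activates the branched-chain dehydrogenase, measured 34.5, 41.9, 58.5, 52.7 and 41.3 CPM against 64.8, 71.5 and 81.2 CPM without overlap (log2 fold change -0.66, SE 0.14, adjusted p = 0.00128). Bckdhb, a subunit of that enzyme, measured 25.4, 31.4, 36.2, 32.4 and 28.8 CPM against 43.02, 49.1 and 50.7 CPM (log2 fold change -0.63, SE 0.10, adjusted p = 6.55e-05). Ivd, which acts next on the leucine branch, measured 242, 310.5, 332, 283 and 258 CPM against 336, 380.3 and 399 CPM (log2 fold change -0.39, SE 0.09, adjusted p = 0.00278). High-fat renin replicates 1 and 5 were the lowest of their group for Ppm1k and Bckdhb.

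Few genes of the respiratory chain passed the test. Of 78 nuclear-encoded subunits 1 rose (Cycs, cytochrome c, log2 fold change 0.23, SE 0.06, adjusted p = 0.00944) and 0 fell, and of 13 mitochondrially encoded genes 1 rose (mt-Nd2, log2 fold change 0.26, SE 0.09, adjusted p = 0.0414). The rises were 1.28% and 7.69% of these lists, against 18.2% of all genes. The mt-Nd2 call was lost in 14 of the 20 alternatives other than the central neuron covariate, among them upper-quartile factors and 9 of the 11 fits that left out a library. All 13 had a positive log2 fold change, which is a shared direction of transcripts from 1 genome and not 13 separate results. In the tricarboxylic acid cycle 1 of 23 fell and 0 rose (4.35% lower, near the 4.87% of all genes). The fall was Pcx (pyruvate carboxylase), at 22.97, 30.3, 29.04, 23.5 and 25.7 CPM against 29.4, 38.4 and 44.8 CPM (log2 fold change -0.53, SE 0.10, adjusted p = 0.000325). Genes of the mitochondrial ribosome rose at 14 of 59 and fell at 1, near the 18.2% background. They numbered 6 rises and 3 falls with upper-quartile factors, and 5 rises without chow renin replicate 1 or 3, or replicate 1 of high-fat renin, 7 without high-fat renin replicate 5 and 9 without chow renin replicate 5, or replicate 2 of high-fat renin. The members named by the rule were Mrps23 at 0.37 ± 0.08, Mrpl34 at 0.38 ± 0.11 and Mrps34 at 0.33 ± 0.10 (log2, SE), of which Mrpl34 and Mrps34 lost their calls in 6 and 7 of the 20 alternatives. Of 17 carriers 4 rose and 1 fell (23.5% and 5.88%, near the background), with 2 rises without chow renin replicate 1, 3 or 5, or replicate 2 of high-fat renin, and 3 falls without high-fat renin replicate 4. Slc25a5, an ADP/ATP translocase, measured 240.0, 201, 178, 185 and 225 CPM against 136, 151 and 159 CPM (log2 fold change 0.45, SE 0.08, adjusted p = 8.70e-05).

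In the renin-angiotensin system itself 3 of 9 genes of at least 20 CPM rose and 2 fell (33.3% and 22.2%, against 18.2% and 4.87% of all genes), with 1 fall without chow renin replicate 2, or replicate 1, 3 or 4 of high-fat renin, and 0 without high-fat renin replicate 5. Ace, the enzyme that makes angiotensin II, measured 111, 103, 80.2, 77.2 and 98.5 CPM against 47.8, 61.7 and 77.7 CPM (log2 fold change 0.60, SE 0.13, adjusted p = 0.00209). One high-fat renin library touched the chow renin range. Agtr1a, the main angiotensin II receptor of mouse heart, measured 19.6, 24.4, 26.2, 25.2 and 16.8 CPM against 28.1, 30.4 and 31.4 CPM, all below chow renin (log2 fold change -0.42, SE 0.13, adjusted p = 0.0206), and the call was lost with the clock covariate and without high-fat renin replicate 1 or 5. Agt, the substrate of renin, was at 0.942 to 1.44 CPM in chow renin and 0.732 to 1.90 CPM in high-fat renin, too low to be read beyond that (log2 fold change 0.13, SE 0.26, adjusted p = 0.784). Ctsd, cathepsin D, measured 983, 1214, 850.0, 784 and 1044 CPM against 663, 731 and 801 CPM (log2 fold change 0.41, SE 0.09, adjusted p = 0.00165), and the glucocorticoid receptor Nr3c1 rose while its target kinase Sgk1 fell.

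Among 20 adrenergic and cyclic nucleotide genes, 3 rose (15%, below the 18.2% of all genes) and 0 fell, and 1 rose without chow renin replicate 1, 3 or 5, or replicate 1 or 2 of high-fat renin. Grk5, a kinase that desensitises receptors and enters the nucleus in hypertrophy, measured 61.8, 51.6, 53.95, 60.5 and 58.2 CPM against 26.8, 31.7 and 52.6 CPM. Chow renin replicate 6 at 52.6 CPM was the only library of its group in the high-fat renin range (log2 fold change 0.73, SE 0.15, adjusted p = 0.000834). The adenylyl cyclase Adcy5 (log2 fold change 0.26, SE 0.09, adjusted p = 0.0388) and the protein kinase A subunit Prkar2a (log2 fold change 0.29, SE 0.09, adjusted p = 0.0194) had small rises and lost their calls in 14 and 8 of the 20 alternatives. In insulin and IGF signalling 5 of 26 rose and 0 fell, near the background share, and 3 rose without chow renin replicate 1, 3 or 5, or replicate 1, 2 or 5 of high-fat renin. Igfbp7, a secreted binding protein of growth factors, measured 158, 142, 114, 119 and 138 CPM against 68.5, 88.8 and 102 CPM without overlap (log2 fold change 0.60, SE 0.15, adjusted p = 0.00455). Grb10, an adaptor that restrains the insulin receptor, (log2 fold change 0.70, SE 0.17, adjusted p = 0.00636) and Mtor (log2 fold change 0.32, SE 0.10, adjusted p = 0.0212) overlapped between the groups, and the Mtor call was lost in 10 of the 20 alternatives.

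The lists for protein quality control outside the heat shock genes gave 3 to 5 rises each. Of 20 unfolded protein and integrated stress response genes 3 rose (Atf4, Atf5 and Atf6) and 2 fell (Herpud1 and Shmt2; 15% and 10%, against 18.2% and 4.87% of all genes), with 1 to 4 rises and 0 to 2 falls when single libraries were left out. Without high-fat renin replicate 1 there was 1 rise and 0 falls. Atf5, the regulator of the mitochondrial stress response, measured 57.1, 58.01, 66.4, 58.00 and 68.3 CPM against 35.7, 42.4 and 47.5 CPM without overlap (log2 fold change 0.55, SE 0.09, adjusted p = 4.43e-05), whereas the sensor Atf6 overlapped (log2 fold change 0.49, SE 0.13, adjusted p = 0.00824). Herpud1, which helps remove proteins from the endoplasmic reticulum, fell with overlap (log2 fold change -0.36, SE 0.12, adjusted p = 0.0325), a call lost in 7 of the 20 alternatives. Of 32 proteasome genes 4 rose (12.5%, below the 18.2% of all genes) and 0 fell (Psmb10 0.42 ± 0.10, Psmd8 0.26 ± 0.06, Psmd1 0.19 ± 0.06, log2 and SE). Rises numbered 2 without chow renin replicate 1 or 3, or replicate 1 of high-fat renin, and the Psmd1 call was lost in 13 of the 20 alternatives. Of 22 autophagy genes 5 rose (22.7%, near the 18.2% of all genes) and 0 fell (Becn1 0.23 ± 0.05, Ulk2 0.36 ± 0.08, Wipi1 0.32 ± 0.09, and Lamp1 and Ctsb). Wipi1 and Becn1 lost their calls in 4 and 1 of the 20 alternatives. Of 24 antioxidant and NRF2 genes 3 rose (Sod3 0.44 ± 0.14, Cat 0.24 ± 0.08, Gpx4 0.22 ± 0.08; 12.5%) and 0 fell. Without single libraries 0 to 3 rose and 0 to 2 fell, and Gpx4, Cat and Sod3 lost their calls in 16, 9 and 8 of the 20 alternatives. That direction flipped with the scale, with 0 rises and 2 falls under upper-quartile factors and 0 and 3 in the fit of genes of at least 20 CPM alone. Of 75 cytosolic ribosome genes 0 passed with edgeR and 0 with DESeq2, and 1 had an unadjusted p under 0.05.

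Clock genes were read because the time of day of collection is not in the labels. Of 16 core clock and output genes 3 fell (Per1 -0.54 ± 0.18, Hlf -0.46 ± 0.16 and Cry2 -0.30 ± 0.08; 18.75%, against 4.87% of all genes) and 0 rose. Per1 and Hlf each lost the call in 11 of the 20 alternatives other than the central neuron covariate. Falls numbered 1 without chow renin replicate 1, 2 or 3, or replicate 1 or 5 of high-fat renin, and 5 without high-fat renin replicate 3. Dbp (log2 fold change -0.14, SE 0.12, adjusted p = 0.481), Per2 (log2 fold change -0.12, SE 0.12, adjusted p = 0.558) and Arntl (log2 fold change 0.27, SE 0.19, adjusted p = 0.331) did not pass, and Ciart, under 20 CPM, was called lower (log2 fold change -0.48, SE 0.16, adjusted p = 0.0325), a call lost in 7 of the 20 alternatives. A clock score was the mean log2 CPM of 9 genes of one phase (Dbp, Tef, Hlf, Per1, Per2, Per3, Nr1d1, Nr1d2 and Ciart) minus that of 5 of the opposite phase (Arntl, Npas2, Clock, Nfil3 and Cry1). It was 2.74 to 3.04 in chow renin and 2.08 to 3.02 in high-fat renin, where replicates 1, 5 and 2 lay below the chow renin range. With this score as a covariate, 681 genes of at least 20 CPM were called, 522 higher and 159 lower. Per1, Hlf and Ciart are part of the score, so the loss of their calls in this fit is no separate test of them. The part of time of day in the result was not tested beyond this fit.

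The largest falls were in genes that were high in chow renin and low in the other 3 groups. Of 7 genes of at least 20 CPM from the list for stimulated stromal cells, 6 fell (Saa3, Spp1, Ptgs2, Lif, Il1rl1 and Ereg). All of these but Spp1 had a mean under 20 CPM over the 15 libraries outside chow renin, so they entered the 20 CPM set through the group where they were high and had to be lower elsewhere. The list was also drawn up with this pattern known, so its values are a description.

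Saa3, an acute-phase apolipoprotein, measured 14.8, 15.1, 14.9, 16.8 and 16.3 CPM in high-fat renin and 72.5, 76.9 and 80.3 CPM in chow renin (log2 fold change -2.30, SE 0.06, adjusted p = 7.36e-19). The spread within each group was small beside the gap. In chow control it was at 17.3 ± 0.828 CPM (SD, n = 4) and in high-fat control at 17.9 ± 1.099 CPM (n = 6), so that chow renin alone stood apart. Ptgs2, the inducible cyclooxygenase, measured 18.5, 13.2, 15.4, 16.5 and 17.2 CPM against 69.6, 76.2 and 81.4 CPM (log2 fold change -2.23, SE 0.09, adjusted p = 5.19e-15). Spp1, osteopontin, measured 40.8, 42.4, 45.2, 39.5 and 39.7 CPM against 175, 187 and 221 CPM (log2 fold change -2.23, SE 0.09, adjusted p = 5.19e-15). In chow control and high-fat control Ptgs2 was at 17.5 ± 1.41 and 17.4 ± 1.84 CPM, and Spp1 at 47.6 ± 5.03 and 47.8 ± 5.89 CPM, near the levels of high-fat renin.

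The cytokine Lif, whose promoter is printed above, measured 13.9, 7.38, 9.33, 8.82 and 8.93 CPM against 41.7, 48.1 and 55.3 CPM (log2 fold change -2.35, SE 0.12, adjusted p = 8.34e-13). Ereg, a ligand of the EGF receptor, measured 12.4, 9.97, 10.2, 10.2 and 11.8 CPM against 45.97, 56.6 and 61.9 CPM (log2 fold change -2.35, SE 0.10, adjusted p = 8.56e-15). Il1rl1, the IL-33 receptor ST2, measured 12.98, 11.4, 13.9, 10.4 and 10.2 CPM against 41.4, 61.1 and 75.2 CPM (log2 fold change -2.37, SE 0.16, adjusted p = 1.39e-09). In all 3 every high-fat renin library lay below every chow renin library. Plau, the urokinase protease, fell in the same way (log2 fold change -1.96, SE 0.18, adjusted p = 1.19e-07). Of 5 chemokine and acute inflammation genes of at least 20 CPM, 3 fell (60%, against 4.87% of all genes): Saa3 again, the adhesion molecule Vcam1 (log2 fold change -0.63, SE 0.15, adjusted p = 0.00486) and the NF-kB inhibitor Nfkbia (log2 fold change -0.38, SE 0.11, adjusted p = 0.0118). Saa3 entered this set through chow renin, the group where it was high. Immediate early genes (13), resident macrophage markers (3) and blood markers (4) had 0 calls with edgeR, 0 with DESeq2 and 0 unadjusted p under 0.05, and so did the 4 markers of monocytes, neutrophils and dendritic cells. The 8 interferon and MHC class I genes had 0, 0 and 2, and the 2 proliferation markers 0, 2 and 2. Lists for lymphocytes, mesothelium, skeletal muscle, peripheral neurons and lung held 0 genes of at least 20 CPM.

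Nervous tissue genes made up the rest of the largest falls. Their high level in chow renin was known when the comparison was set up, so their values are a description and support nothing further. Of the central neuron markers 4 reached 20 CPM and were called lower (Snap25, Slc17a7, Camk2a and Camk2b), as was the myelin gene Mbp of the oligodendrocyte list, with Snap25 and Mbp reaching that level only through chow renin. With no level required, 28 of 28 central neuron, 12 of 14 oligodendrocyte and 8 of 12 astrocyte markers were called lower, where 12.8% of all tested genes were. Snap25, a protein of synaptic vesicle fusion, measured 10.6, 13.4, 18.3, 19.2 and 15.5 CPM against 47.3, 55.4 and 83.1 CPM (log2 fold change -1.99, SE 0.17, adjusted p = 3.16e-08). Slc1a2, the glial glutamate transporter, measured 14.1, 18.9, 21.7, 22.4 and 21.1 CPM against 53.2, 67.5 and 94.5 CPM (log2 fold change -1.89, SE 0.16, adjusted p = 3.53e-08). Kif5a, a neuronal kinesin, measured 19.00, 23.7, 31.4, 30.8 and 26.6 CPM against 73.2, 91.7 and 124 CPM (log2 fold change -1.86, SE 0.15, adjusted p = 2.41e-08). Chow renin replicates 1 and 2 were the highest for these 3 genes. Snhg11 (-1.87 ± 0.17) fell likewise, and in the high-fat control group Snap25 was at 16.9 ± 2.72 CPM (SD, n = 6).

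**Figure D4:**
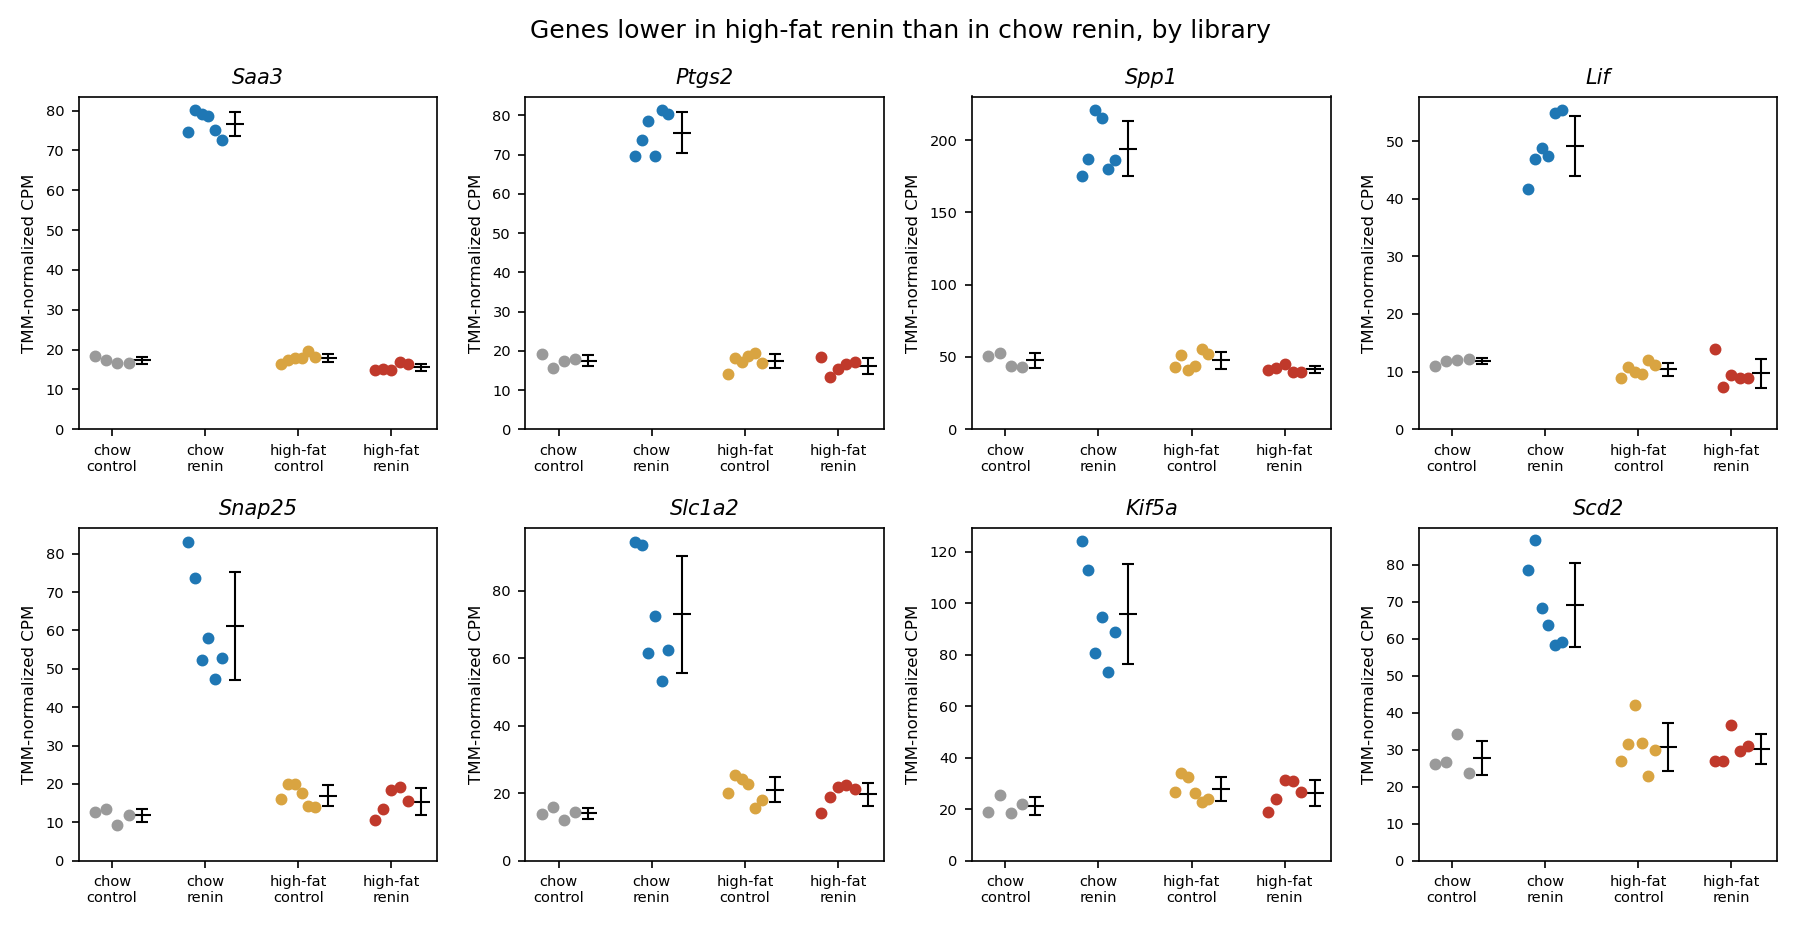
TMM-normalized CPM per library of 4 genes of stimulated stromal cells (Saa3, Ptgs2, Spp1, Lif), 3 nervous tissue genes (Snap25, Slc1a2, Kif5a) and the desaturase Scd2 in the 4 groups, with mean and SD beside the points. In each panel the 6 chow renin libraries lie above every library of the other 3 groups.

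Under 20 CPM the balance turned. Of 9655 such genes 2157 (22.3%) were called, 479 (4.96%) higher and 1678 (17.4%) lower. Over all 15216 genes 3440 (22.6%) were called, 1491 (9.8%) higher and 1949 (12.8%) lower.

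The same diet without renin gave a comparison in 10 other libraries. Among genes of at least 20 CPM, 3 (0.0539%) were called between high-fat control and chow control: Tnfaip2 and Hk1 lower, and mt-Nd3 higher, with log2 fold changes of -0.46 (SE 0.08), -0.34 (SE 0.07) and 0.53 (SE 0.09). An unadjusted p under 0.05 was found for 628, and DESeq2 called 48. Of the 1283 genes called under renin, 0 were among the 3 called by edgeR. Of those 1283 genes 691 (53.9%) had the same sign without renin, beside 51.4% of all 5561. The share was 52.4% of the rises and 59.4% of the falls. The median log2 fold change without renin was 0.008 for the genes that rose under renin and -0.036 for those that fell.

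Whether the diet difference itself depended on renin was tested by the interaction, which shares the 11 libraries with the main comparison. It was called for 439 genes of at least 20 CPM (7.89%), 343 higher (6.17%) and 96 lower (1.73%), and for 223 to 664 when single libraries were left out. For Xirp2 the diet difference was -0.20 ± 0.26 without renin and 1.52 ± 0.25 with it (log2, SE), an interaction of 1.72 ± 0.36 (adjusted p = 0.00337 by edgeR). For P4ha1 it was 0.13 ± 0.14 and 0.96 ± 0.13, an interaction of 0.83 ± 0.20 (adjusted p = 0.00658). Acta1 had opposite signs, -1.23 ± 0.55 without and 1.81 ± 0.53 with renin (interaction adjusted p = 0.0145). For Col3a1, 0.35 ± 0.32 and 1.08 ± 0.29, and Postn, 0.56 ± 0.49 and 1.72 ± 0.44, the difference of the differences did not pass (adjusted p = 0.34 and 0.308).

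Genes of fuel use gave other pairs of values. For Fabp3 the diet difference was 0.38 ± 0.08 without renin and 0.41 ± 0.08 with it, and the interaction 0.03 ± 0.12 (adjusted p = 0.908 by edgeR). Cidea gave 0.32 ± 0.10 and 0.49 ± 0.09, and Ppm1k -0.24 ± 0.14 and -0.66 ± 0.14. Over lists, the median diet difference was 0.76 with renin and 0.20 without it for the 13 collagens, and 0.50 and -0.20 for the 19 wall stress genes.

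Several rises of the diet under renin ran against a fall under renin on chow. Setting chow renin against chow control uses the chow renin libraries a second time, so its values are only set beside the others. Renin changed 9.24% of genes of at least 20 CPM on chow and 18.3% with the fat diet. Actc1 was at 8639 ± 1175 CPM (SD, n = 4) in chow control, 6096 ± 689.9 CPM (n = 6) in chow renin, 7310.2 ± 1025 CPM (n = 6) in high-fat control and 8164 ± 759 CPM (n = 5) in high-fat renin. Renin gave -0.50 ± 0.11 with chow and 0.16 ± 0.10 with the high-fat diet (log2, SE, adjusted p = 0.00154 and 0.332 by edgeR), so high-fat renin lay near chow control. Srl (-0.34 ± 0.11 and 0.27 ± 0.10), Slc25a5 (-0.29 ± 0.08 and 0.25 ± 0.08) and Mrpl34 (-0.47 ± 0.12 and 0.08 ± 0.11) were also lower with renin on chow, each past the threshold by edgeR. These genes were picked from the named ones after their values were seen.

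Xirp2 and P4ha1 showed another order. Xirp2 was at 222 ± 39.8, 267 ± 28.3, 193 ± 47.8 and 764 ± 357 CPM in chow control, chow renin, high-fat control and high-fat renin, and P4ha1 at 50.6 ± 6.15, 47.7 ± 3.65, 55.2 ± 9.04 and 92.8 ± 23.1 CPM. Renin on the high-fat diet gave 1.98 ± 0.25 for Xirp2 and 0.75 ± 0.13 for P4ha1 (adjusted p = 0.000442 and 0.0019 by edgeR), and on chow 0.26 ± 0.27 and -0.08 ± 0.14 (adjusted p = 0.611 and 0.79). Ppm1k and Bckdhb had their lowest levels in high-fat renin, with -0.66 ± 0.14 and -0.52 ± 0.10 for renin on the high-fat diet.

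**Figure D5:**
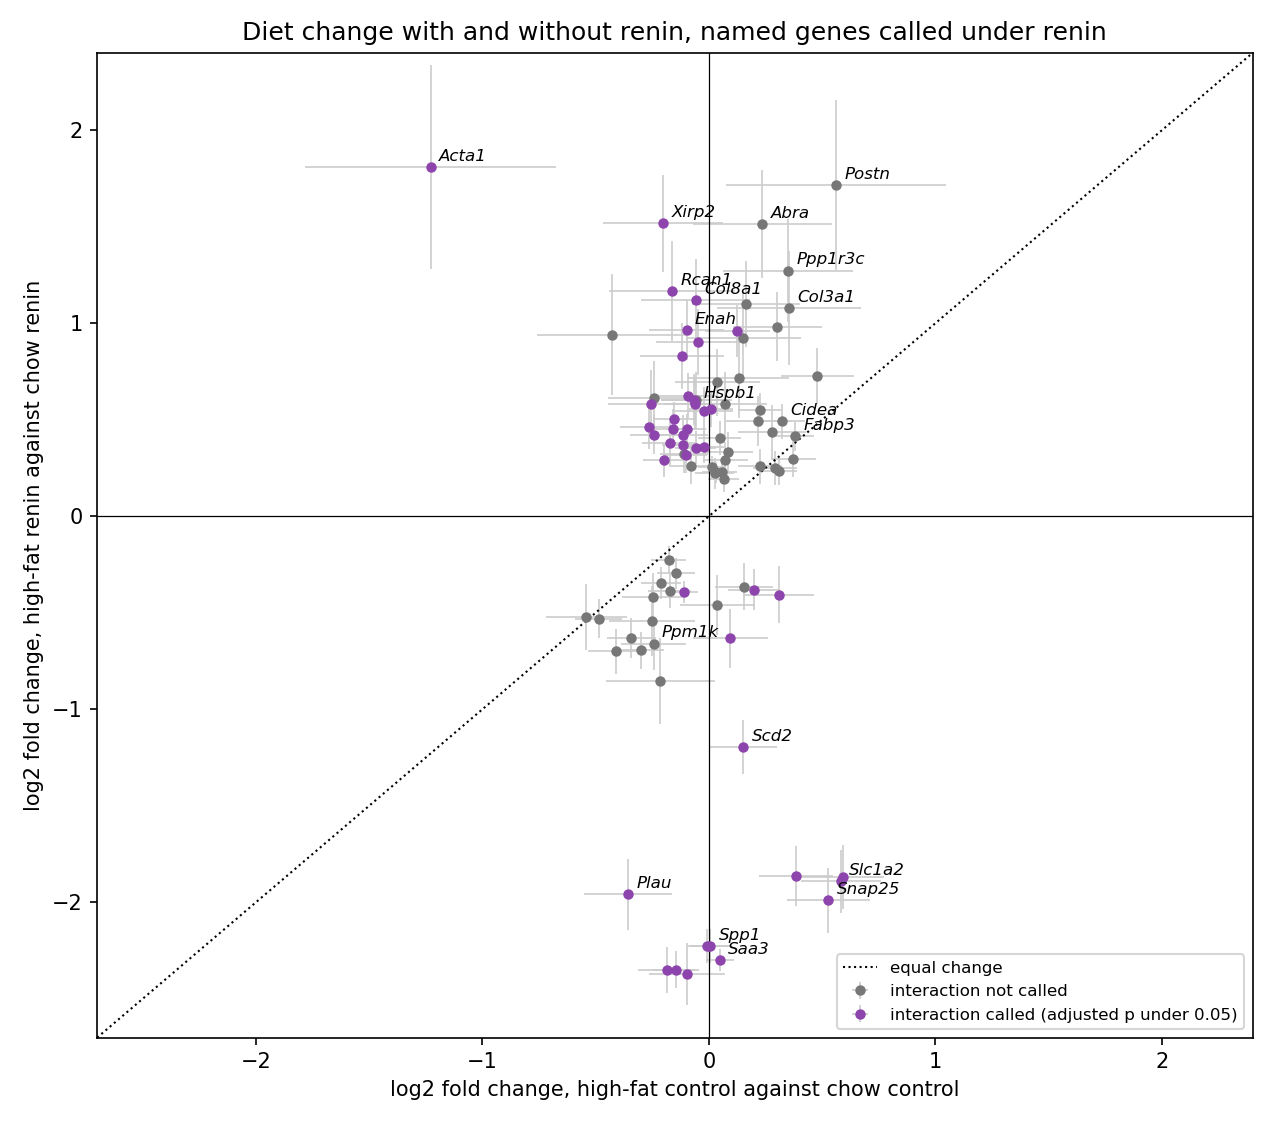
Diet difference with renin (vertical, log2 fold change of high-fat renin against chow renin) against the diet difference without renin (horizontal, high-fat control against chow control) for named genes of at least 20 CPM called under renin, without the 3 repeat-derived models. Bars are standard errors, the dotted line marks equal change, and purple points had a called interaction. Fabp3 and Cidea lie near the line, while Xirp2, Enah and Saa3 lie near 0 on the horizontal axis.

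The high-fat renin hearts were not alike. Collagen genes had a mean log2 CPM of 7.19, 6.76, 6.63, 6.97 and 6.93 in replicates 1 to 5, against 6.01 to 6.36 in chow renin. The mean log2 CPM of the wall stress list (9.47) and of the cytoskeleton list (7.37) was highest in replicate 1, and for Acta1 and Xirp2 replicates 1, 2 and 5 stood above replicates 3 and 4. Leaving out replicate 1 gave 698 calls of at least 20 CPM, and leaving out replicate 4 gave 1447. Without chow renin replicate 1 or 3, both with atrial transcripts, 815 and 846 were called, and without all 5 libraries of the series that held atrial transcripts 733, of which 475 were higher. Of the 94 named genes that were called, 61 kept direction and call in all 20 alternatives other than the central neuron covariate, among them Postn, Col3a1, Xirp2, Hspb1, Fabp3, Ppm1k and Fasn. The 61 also hold the 10 lower and 4 higher named genes that reached 20 CPM only through the renin group where they were high. For those genes the kept direction supports nothing further.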

How the data were processed

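Bulk RNA-seq of 21 mouse hearts was used, 11 of them in the main comparison. The authors deposited 1 Salmon table per sample, and its estimated counts (reads per transcript, the column of read numbers per the file headers) were the values analysed. Salmon 1.10.2, DESeq2 1.40.2 and the build GRCm38 (mm10) are given in the submitters' processing notes. The strandedness of the libraries is not given in the sources used here, so antisense and overlapping genes may share reads.

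Transcripts were matched to GENCODE M21 (GRCm38; 98.0% of 119215 transcripts, with 0.854% to 0.925% of reads unmatched), summed to genes and rounded. Genes were tested with edgeR 4.0.16 (R 4.3.3, TMM factors, filterByExpr, robust quasi-likelihood fit over the 21 libraries with a term for each group), with Benjamini-Hochberg adjustment over 15216 genes and a threshold of 0.05. The biological coefficient of variation was 0.154. Fold changes are log2, with the standard error derived from the F statistic, and levels are CPM on TMM-scaled library sizes, as the mean ± SD where groups are given. The scripts were tested on simulated data. Alternatives were DESeq2 1.42.0, other scalings, filters and CPM minimums, a replicate block, 2 covariates, the 11 libraries alone, single libraries left out and, chosen after seeing the data, the 5 libraries with Myl7 of at least 50 CPM left out.

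The labels number the libraries but do not tie each number to an animal, so p-values measure the spread between libraries. The members of the comparison and all gene lists were chosen with earlier results of these data known. Genes named are the 12 largest rises and 12 largest falls among called protein-coding genes of at least 20 CPM whose libraries did not overlap, up to 3 called members of each pathway list by absolute fold change, and 27 index genes whatever their result. Some genes named by this rule are not reported here, and they remain in the fits and in the list counts. Tnfaip2, Hk1, mt-Nd3, Myl7, Ren1 and list members named without values fall outside that rule.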

Additional observations from a re-analysis of the deposited data

Results flagged for a closer look

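The diet difference with renin differed from that without renin, by edgeR's interaction term, for 42 of the 108 named genes. Over all genes of at least 20 CPM it was called for 7.89%, and over those called for the diet under renin for 29.8%. Most named genes were chosen for their diet difference under renin, which shares libraries with the interaction, so their share is raised by that choice. Values are the interaction's log2 fold change, positive where the diet difference was higher under renin. Among wall stress, sarcomere and calcium genes they were 3.04 for Acta1, 1.72 for Xirp2, 1.33 for Rcan1, 1.06 for Enah, 0.84 for Slc8a1, 0.72 for Casq2, 0.66 for Actc1, 0.66 for Pdlim5, 0.61 for Srl and 0.41 for Cryab. Matrix genes gave 1.18 for Col8a1, 0.95 for Loxl2 and 0.83 for P4ha1. Chaperone, tubulin and turnover genes gave 0.73 for Hspa4l, 0.64 for Hspb1, 0.54 for Hspb8, 0.57 for Tubb4b, 0.54 for Psmb10, 0.42 for Wipi1 and 0.38 for Ulk2. Signalling, fuel and mitochondrial genes gave 0.67 for Ace, 0.49 for Prkar2a, 0.95 for Pfkp, 0.55 for Slc25a5, 0.55 for Mrpl34, 0.49 for Mrps23, -0.71 for Slc27a1 and -0.28 for Srebf2.

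Stimulated stromal and inflammatory genes gave -2.28 for Il1rl1, -2.16 for Lif, -2.20 for Ereg, -2.35 for Saa3, -2.22 for Ptgs2, -2.23 for Spp1, -1.60 for Plau, -0.73 for Vcam1 and -0.58 for Nfkbia. Genes of nervous tissue gave -2.52 for Snap25, -2.48 for Slc1a2, -2.46 for Snhg11, -2.25 for Kif5a and -1.35 for Scd2. In each of these genes chow renin had the highest mean of the 4 groups, by little for Nfkbia (35.7 CPM against 34.6 CPM in high-fat control).

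A single library stood apart from the rest of its group in 11 of 216 checks of a named gene in a renin group, where chance gives about 1 in 20. Chow renin replicate 6 was the highest of its group for Slc8a1 (265 CPM, the other libraries at 176 to 203), Grk5 (52.6 against 26.8 to 34.2), Pfkfb2 (57.7 against 37.0 to 42.7), Cpt1b (712 against 571 to 592) and Cd36 (1502 against 1135 to 1217). Chow renin replicate 2 was the lowest for Srebf2 (38.4 CPM against 40.3 to 41.4) and Srebf1 (36.8 against 41.7 to 44.4). In high-fat renin, replicate 4 was the highest for Col1a2 (285 CPM against 179.9 to 198) and Col1a1 (272 against 144 to 172), replicate 2 for Fabp3 (2906 against 2586 to 2665) and replicate 1 for Arntl (7.63 against 2.94 to 3.98). In the other 205 checks no library passed the limit of Dixon's gap test (0.710 for 5 libraries, 0.625 for 6).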

How the results depend on the processing

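Of 1283 genes of at least 20 CPM called, 1012 higher and 271 lower, upper-quartile factors gave 578 higher and 415 lower, and the fit on these genes alone 476 and 478, with 56.8% of the calls of the same sign without renin and 169 interaction calls. With the clock covariate 681 were called (522 and 159; same sign 44.3%), and with the central neuron covariate 9 (0 higher, 9 lower), 37 over all genes and 8 for the interaction. Without the 5 libraries with atrial transcripts 733 were called, 475 higher, with a same-sign share of 58.4% and 204 interaction calls. A minimum of 10 CPM gave 459 lower calls, and one of 50 CPM 614 calls (524 and 90) and 209 for the interaction. The cause of these moves was not tested, beyond the smaller number of genes or libraries where the alternative has fewer.

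Without single libraries the calls ranged from 698 (without high-fat renin replicate 1) to 1447 (without replicate 4), higher calls from 484 to 1134, lower calls from 172 (without high-fat renin replicate 5) to 313, calls over all genes from 2473 to 3667, the interaction from 223 to 664 and the same-sign share from 49.3% to 59.6%. Calls fell to 815 without chow renin replicate 1 and to 846 without replicate 3. The replicate numbers were not taken as pairs, since the correlation of deviations between same-numbered renin libraries was -0.092 for number 1, though 0.197, 0.431, 0.132 and 0.285 for numbers 2 to 5. Of these libraries 2 of 5 correlated best with their own number, and replicate 3 of all 4 groups held atrial transcripts. The replicate block gave 1372 calls, and Per1 lost and Col1a1 gained a call among the named genes. The same-sign share and the interaction have no value in the fit of 11 libraries.

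Of 94 called named genes, 61 kept the call in all 20 alternatives other than the central neuron covariate, where 7 kept it, 60 lost it and 27 reversed, with standard errors larger by a median ratio of 3.21. The 61 include the 10 lower and 4 higher genes that reached 20 CPM only through the renin group where they were high. The reversed log2 fold changes were -0.068 (Gm10800), -0.25 (Gm10718), -0.35 (Gm10719), -0.21 (Col3a1), 0.024 (Slc1a2), 0.21 (Snhg11), -0.26 (Rcan1), -0.30 (Slc8a1), 0.046 (Kcnip2), -0.17 (Grk5), -0.017 (Loxl2), -0.18 (Slc25a20), -0.070 (Cpt2), 0.058 (Scd2), -0.0044 (Pfkfb2), 0.15 (Pcx), 0.072 (Bckdhb), 0.022 (Ivd), -0.016 (Mrps34), -0.036 (Atf6), 0.86 (Herpud1), -0.060 (Wipi1), -0.14 (Grb10), 0.13 (Per1), 0.44 (Hlf), 0.073 (Cry2) and 0.18 (Myh6). The cause was not tested. Agt and Arntl were at a few CPM in most renin libraries, and whether a difference was missed at that level was not tested.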
